A study of Mus musculus with 24 samples.

Results

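Transcripts of the kynurenine pathway, by which cells degrade most tryptophan, were examined in bone marrow-derived macrophages (BMDMs) that had or lacked the aryl hydrocarbon receptor (AhR). The genes were taken by name: Ido1, Ido2, Afmid, Kmo, Kynu, Haao, Acmsd and Qprt as enzymes of the route, and Il4i1, whose enzyme acts on tryptophan outside it. They are 9 of the 55421 genes in the count table. All 9 were found, and 8 of them passed the filter on low counts and could be tested. Acmsd did not pass it, with 0 to 1 counts per group of 6 libraries.

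The study compared BMDMs of wildtype (WT) C57BL/6J mice with BMDMs of AhR-KO mice, which carry the germline null allele Ahr tm1Bra in every cell. It asked whether alveolar-like macrophages without AhR are impaired in making lipid mediators, at rest and after bacterial lipopolysaccharide (LPS). The study as a whole used young adult mice of both sexes, and the sample titles here give no sex. Only the WT libraries 34 (unstimulated) and 38 (LPS) had under 10 Y-linked counts. The cells came from 1 experiment, and there were 6 libraries in each of 4 groups: WT unstimulated, AhR-KO unstimulated, WT LPS and AhR-KO LPS. Bone marrow of all groups was grown with 10 ng/ml GM-CSF and 2 ng/ml TGF-β1, the stimulated groups received 97 EU/ml LPS from day 6 for 24 h, and the protocol lists 5 µM of the Ca2+ ionophore A23187 for the last 10 min without exempting any group. Poly(A) RNA was sequenced in bulk to between 45106052 and 76992663 counted fragments per library, so that fewer cells of a type and less RNA per cell cannot be told apart. Replicates carry the library numbers 17 to 40, which form 3 runs of 8 consecutive numbers with 2 libraries of each group in every run. By the legend of the sequencing data, the libraries of a group came from separate animals. The labels do not tie unstimulated and LPS-stimulated cultures to the same animals.

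In this pathway tryptophan is first opened to N-formylkynurenine by the dioxygenases IDO1 and IDO2, and arylformamidase (Afmid) releases kynurenine from it. Kynurenine 3-monooxygenase (Kmo) and kynureninase (Kynu) then lead to 3-hydroxyanthranilate, which HAAO opens to a product that becomes quinolinate, the substrate of QPRT on the way to NAD, unless ACMSD draws it off to another end. IL4I1 is a secreted amino acid oxidase that turns tryptophan into indole pyruvate instead, and both kynurenine derivatives and products of IL4I1 are known as ligands of AhR. IDO1 is known in macrophages and dendritic cells as an interferon-induced enzyme.

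Levels are counts per 1000000 (CPM) of the library after TMM scaling, given as mean ± SD of 6 libraries. A gene was called when edgeR's quasi-likelihood F-test gave a Benjamini-Hochberg adjusted p of at most 0.05 over 16593 genes and the log2 fold change was at least 1 in size; for the interaction of genotype and LPS no minimum change was set. The targeted gene could not serve as a check of the labels, since the counts cover the whole gene and are blind to the part that the allele removes. Ahr stood at 28.3 ± 12.2 CPM in WT and 7.42 ± 2.39 CPM in AhR-KO BMDMs without stimulation and at 16.8 ± 7.64 and 43.1 ± 16.2 CPM after LPS. Ahrr, the AhR repressor and a target of the receptor, was between 13.3 and 96.6 CPM in the 12 WT libraries and between 0 and 1.05 CPM in the 12 AhR-KO libraries.

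Promoters are shown for the 3 genes whose levels carry the results below, Kmo, Haao and Il4i1. Each is the 250 bases before the RefSeq start of the gene, on the strand of the gene, in build GRCm38.p6 (mm10). Capitals mark GCGTG, the core letters of the AhR response element. All 3 windows lie inside the gene interval whose exons were counted, so the counted gene models also have an upstream start whose promoter was not searched. The intervals are chr1:175631943-175632192 (+ strand) for Kmo, chr17:83846791-83847040 (- strand) for Haao and chr7:44836038-44836287 (+ strand) for Il4i1.
Kmo: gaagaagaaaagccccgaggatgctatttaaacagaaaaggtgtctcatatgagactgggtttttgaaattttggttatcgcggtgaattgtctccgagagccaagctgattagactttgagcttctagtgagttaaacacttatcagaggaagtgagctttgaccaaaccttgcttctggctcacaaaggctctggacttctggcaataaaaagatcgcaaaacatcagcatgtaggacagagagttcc
Haao: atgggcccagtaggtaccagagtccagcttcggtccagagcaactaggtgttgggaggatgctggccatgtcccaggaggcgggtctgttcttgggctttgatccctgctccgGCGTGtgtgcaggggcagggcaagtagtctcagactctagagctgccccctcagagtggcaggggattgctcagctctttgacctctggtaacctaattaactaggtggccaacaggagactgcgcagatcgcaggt
Il4i1: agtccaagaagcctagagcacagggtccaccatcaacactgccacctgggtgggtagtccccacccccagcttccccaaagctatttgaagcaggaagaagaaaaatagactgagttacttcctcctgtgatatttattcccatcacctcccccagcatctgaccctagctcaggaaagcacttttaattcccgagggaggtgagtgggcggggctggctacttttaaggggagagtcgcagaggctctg

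RefSeq promoters were found for 6 of the 9 genes, the other three being Ido1, Ido2 and Kynu. Both strands were searched for GCGTG, for its longer form TNGCGTG, which contains it, and for the TTTC repeat of the interferon-stimulated response element. The only match was GCGTG in Haao, from 137 to 133 bases before the start. GCGTG was held by 28.2% of 32851 promoters of this length, TNGCGTG by 4.1% and the TTTC repeat by 2.98%. The windows of Kmo, Afmid, Il4i1, Acmsd and Qprt held none of the 3 motifs, which says nothing of sites outside them.

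The first step belonged to genes with few counts in the resting cell. Ido1 (ENSMUSG00000031551), the interferon-induced dioxygenase, lies on chr8:24584136-24597009 (- strand) beside Ido2 (ENSMUSG00000031549) on chr8:24531892-24576333 (- strand). Ido1 in unstimulated WT libraries ran from 0.0567 over a median of 0.0901 to 0.182 CPM, a total of 38 counts, while none of the 6 unstimulated AhR-KO libraries held a count. After LPS it ran from 0.702 over 2.56 to 3.45 CPM in WT and from 0 over 0.0576 to 0.271 CPM in AhR-KO BMDMs, where 4 of 6 libraries had counts. Every WT library thus stood above every AhR-KO library in both states, and stimulated AhR-KO BMDMs held about as little Ido1 as WT cells at rest.

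Ido1 was at least 12.9-fold lower in AhR-KO BMDMs without stimulation, set against a floor of 3 counts over the group, and its ratio of means was 21.6 after LPS. The fitted log2 fold changes were -5.55 ± 1.18 (SE, edgeR, adjusted p = 0.00543), which depends on the prior count because AhR-KO libraries had none, and -4.38 ± 0.75 (adjusted p = 0.000473). LPS raised Ido1 in WT BMDMs by 4.47 ± 0.74 on the log2 scale (adjusted p = 8.86e-05) and at least 13.2-fold in AhR-KO BMDMs (adjusted p = 0.000674). The difference of both LPS effects, 1.18 ± 0.80 (adjusted p = 0.671), did not pass the test.

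Ido2, the second dioxygenase, followed with fewer counts. In WT BMDMs at rest it had 12 counts, of which the library 33 gave 0.204 CPM and the others at most 0.0244 CPM, and in AhR-KO BMDMs at rest it had none. After LPS it ran from 0.048 over 0.548 to 0.955 CPM in WT and from 0 over 0.0909 to 0.271 CPM in AhR-KO BMDMs, and 3 AhR-KO libraries lay below all WT libraries. LPS raised Ido2 in both genotypes (WT log2 fold change 3.89 ± 1.06, edgeR, adjusted p = 0.00664; AhR-KO at least 14.0-fold, adjusted p = 0.00429), and without library 33 the WT value was 5.77 (adjusted p = 0.000323). The genotype differences were not called (adjusted p = 0.18 without stimulation and 0.144 after LPS). Tdo2, the dioxygenase of liver, had between 0 and 9 counts per group.

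Il4i1 (ENSMUSG00000074141, chr7:44816387-44840809, + strand) differed with both genotype and LPS. It ran from 6.79 over 18.4 to 24.0 CPM in unstimulated WT and from 0.0227 over 0.393 to 1.76 CPM in unstimulated AhR-KO libraries. After LPS it ran from 114.0 over 270.6 to 335.0 CPM in WT and from 16.5 over 30.01 to 128.6 CPM in AhR-KO libraries. Without stimulation the genotypes did not overlap, whereas after LPS the AhR-KO library 31 reached into the WT range.

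The ratio of means, WT over AhR-KO, was 27.4 without stimulation (log2 fold change -4.73 ± 0.72, edgeR, adjusted p = 9.89e-05) and 5.49 after LPS (-2.46 ± 0.64, adjusted p = 0.0107). LPS raised Il4i1 14.8-fold in WT and 73.7-fold in AhR-KO BMDMs by the ratio of means (log2 fold changes 3.89 ± 0.68, adjusted p = 6.59e-05, and 6.16 ± 0.77, adjusted p = 4.72e-07). The difference between these responses was 2.27 ± 0.88 and missed the threshold over all genes (edgeR, adjusted p = 0.196). With each library left out in turn it lay between 1.56 and 3.01 (adjusted p = 0.0494 to 0.42). Among these fits it was called only without the AhR-KO library 27 (3.01, adjusted p = 0.0494). Without that library the LPS effect in AhR-KO BMDMs was 6.89 (edgeR, adjusted p = 2.37e-07) and the genotype difference at rest -5.46 (adjusted p = 4.11e-05), and without library 31 the former was 5.45 (adjusted p = 6.6e-07). Il4i1 shares 2.4% of its exon bases with Nup62 on the same strand, and Nup62 itself differed by -0.11 (adjusted p = 1) and -0.87 (adjusted p = 0.0139) on the log2 scale between genotypes in the respective states, the latter short of the minimum change.

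**Figure D1:**
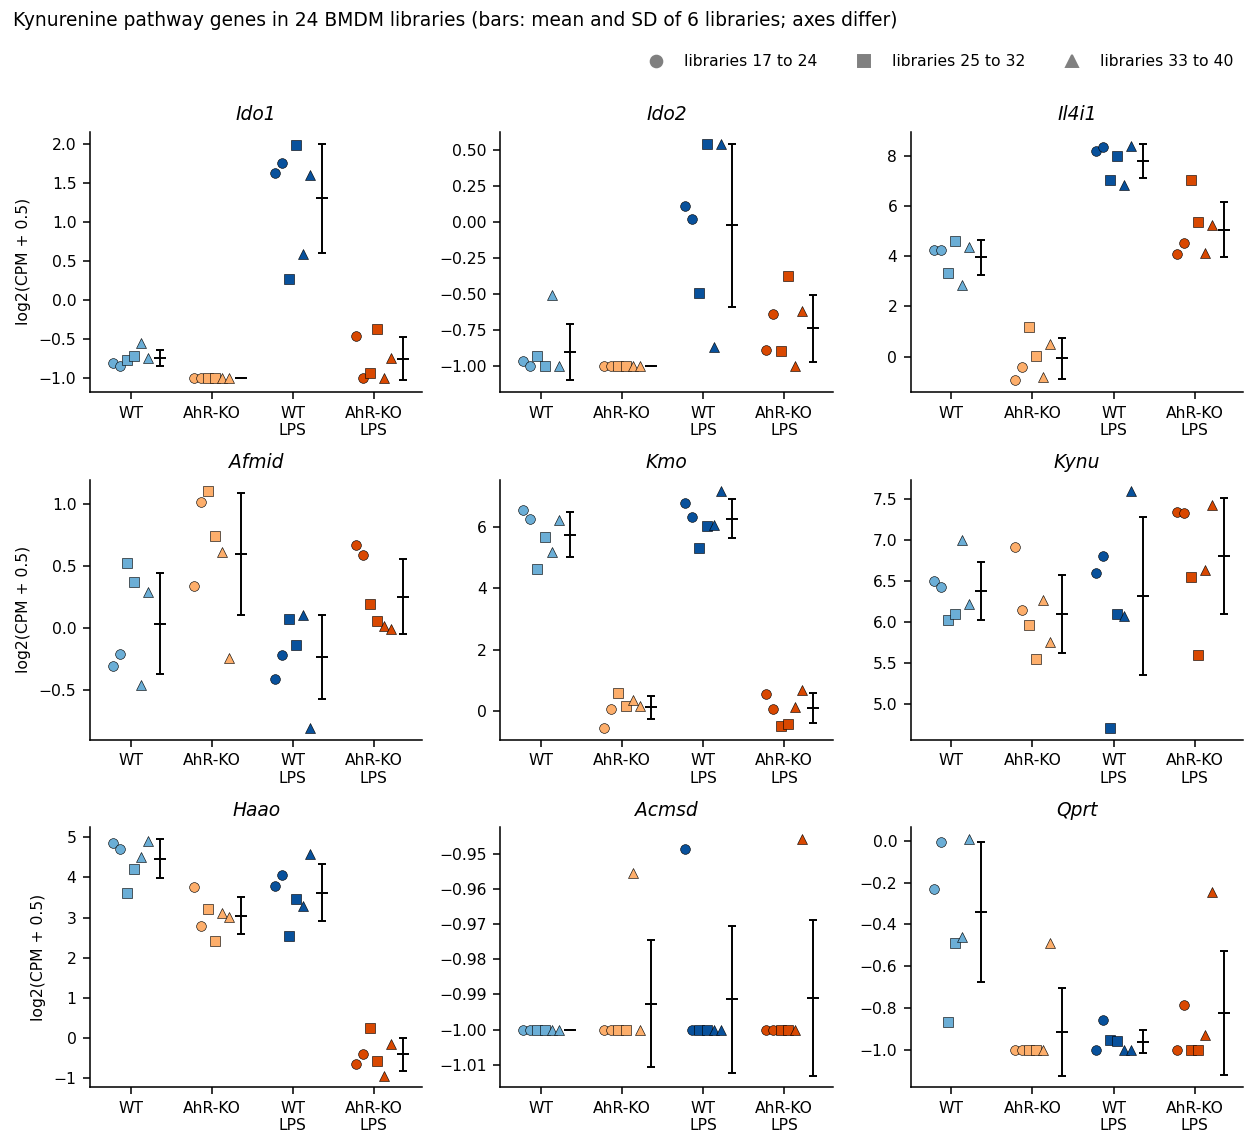
Each panel plots 1 gene as log2(CPM + 0.5) in the 24 libraries by group, with axes that differ between panels, symbols for the 3 runs of library numbers and a bar for the mean and SD of 6 libraries. Kmo keeps the 12 WT and 12 AhR-KO libraries apart in both states, Haao drops in AhR-KO libraries after LPS, Il4i1 rises with LPS in both genotypes, and the single points of Acmsd are 1 count each.

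The next enzyme, Afmid (ENSMUSG00000017718, chr11:117825924-117839908, + strand), the formamidase that releases kynurenine, was low throughout. Its mean was 0.562 ± 0.296 CPM in WT and 1.08 ± 0.484 CPM in AhR-KO BMDMs at rest, and 0.372 ± 0.190 and 0.717 ± 0.265 CPM after LPS. The groups overlapped in both states, and the log2 fold changes of 0.94 ± 0.43 (edgeR, adjusted p = 0.313) and 0.94 ± 0.44 (adjusted p = 0.201) were not called. Afmid shares 44.2% of its exon bases with Gm20708 on the same strand, and fragments in that stretch were left out by the counting.

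Kmo (ENSMUSG00000039783, chr1:175620381-175662116, + strand), which hydroxylates kynurenine, was lower in AhR-KO than in WT BMDMs in both states. It ran from 24.3 over 62.8 to 92.8 CPM in unstimulated WT and from 0.181 over 0.609 to 0.986 CPM in unstimulated AhR-KO libraries. After LPS it ran from 39.1 over 73.0 to 142.7 CPM in WT and from 0.216 over 0.570 to 1.11 CPM in AhR-KO libraries. The lowest WT library was above the highest AhR-KO library in each state.

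The means differed 96.0-fold without stimulation (log2 fold change -6.56 ± 0.51, edgeR, adjusted p = 1.18e-08) and 137-fold after LPS (-7.09 ± 0.52, adjusted p = 3.16e-09). Kmo ranked 9 of 16593 tested genes by its p without stimulation and 12 after LPS, and 48 and 42 by its change among the genes called lower. LPS itself left Kmo at 0.50 ± 0.40 in WT (adjusted p = 0.352) and -0.03 in AhR-KO BMDMs (adjusted p = 0.967), and the interaction was -0.53 ± 0.59 (adjusted p = 0.922). Fh1, a gene on the opposite strand that overlaps the gene body of Kmo, differed by -0.08 (adjusted p = 1) and -0.68 (adjusted p = 0.00457) between genotypes.

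Kynu (ENSMUSG00000026866, chr2:43555329-43682715, + strand), the kynureninase that follows Kmo, was abundant in all groups. It ran from 64.6 to 128.1 CPM in WT and from 46.2 to 120.1 CPM in AhR-KO BMDMs at rest, and from 25.6 to 192.9 and from 47.8 to 171.7 CPM after LPS. Both genotypes covered much the same range, and the differences of -0.25 ± 0.36 (edgeR, adjusted p = 1) and 0.39 ± 0.36 (adjusted p = 0.651) on the log2 scale did not pass the test. The LPS effects were 0.14 ± 0.36 (adjusted p = 0.805) in WT and 0.77 ± 0.36 (adjusted p = 0.0848) in AhR-KO BMDMs.

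Haao (ENSMUSG00000000673, chr17:83831156-83847963, - strand), the dioxygenase that opens 3-hydroxyanthranilate, had a level that depended on both genotype and stimulation. It ran from 11.8 over 24.1 to 29.3 CPM in WT and from 4.83 over 7.87 to 13.1 CPM in AhR-KO BMDMs at rest. After LPS it ran from 5.32 over 11.9 to 23.7 CPM in WT and from 0.0258 over 0.222 to 0.688 CPM in AhR-KO BMDMs. At rest 5 of the 6 AhR-KO libraries lay below all WT libraries, library 19 being the exception, and after LPS all 6 did.

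The ratio of means, WT over AhR-KO, grew from 2.77 (log2 fold change -1.47 ± 0.42, edgeR, adjusted p = 0.0341) to 46.1 (-5.50 ± 0.51, adjusted p = 9.34e-08). The LPS effect was -0.79 ± 0.41 in WT (adjusted p = 0.141) and -4.82 ± 0.49 in AhR-KO BMDMs (adjusted p = 2.32e-08), where the mean fell 28.8-fold without overlap of the libraries. The difference of the LPS effects was -4.03 ± 0.62 (adjusted p = 0.000362) and ranked 55 of all tested genes by its p. The call at rest was lost when any of the libraries 17, 18, 20, 27, 28, 34, 35 or 36 was left out (log2 fold change -1.49 to -1.36, adjusted p = 0.0575 to 0.0862). The promoter of Haao printed above is the one that holds GCGTG.

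Acmsd (ENSMUSG00000026348, chr1:127729413-127767978, + strand), which diverts the HAAO product away from quinolinate, had 0 counts in unstimulated WT and 1 count in each of the other groups. Qprt (ENSMUSG00000030674, chr7:127107114-127122226, - strand), which takes quinolinate on towards NAD, had 123 counts in unstimulated WT libraries, from 0.0488 over 0.289 to 0.505 CPM. It fell with LPS to 5 counts in WT (log2 fold change -4.19 ± 1.28, edgeR, adjusted p = 0.0115, and -5.05 without library 22), and 5 of 6 stimulated WT libraries lay below all unstimulated ones. In AhR-KO BMDMs it had 14 counts at rest, all in library 36, and 23 after LPS, with library 40 at 0.344 CPM.

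The genotype difference of Qprt at rest was -3.02 ± 1.14 (edgeR, adjusted p = 0.155) with library 36 and -7.19 (adjusted p = 0.00681) without it. Since the other unstimulated AhR-KO libraries held no count, all values without library 36 depend on the prior count. With library 36 kept, the difference was called when the run of library numbers entered as a factor (-3.65, edgeR, adjusted p = 0.0317) and with limma-voom (-4.17, adjusted p = 0.0031). Without the same library the LPS effect in AhR-KO BMDMs went from 1.04 ± 1.17 (adjusted p = 0.511) to 5.20 (adjusted p = 0.0122) and the interaction from 5.23 ± 1.74 (adjusted p = 0.103) to 9.40 (adjusted p = 0.00854). Without library 40 the LPS effect in AhR-KO BMDMs was -0.72 (adjusted p = 0.699).

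Counted over the route, 4 of the 8 tested genes, Ido1, Il4i1, Kmo and Haao, were lower in AhR-KO BMDMs without stimulation, and none was higher. Of all tested genes 3.57% were called lower and 0.916% higher in that comparison. The same 4 genes were lower after LPS, and again none was higher, against 6.19% lower and 2.17% higher of all genes. The median log2 fold change of the 8 genes was -3.57 at rest, or -2.71 with Ido1 and Ido2 at their bounds, and -2.37 after LPS, beside medians of -0.0057 and -0.0459 over all genes. The libraries did not overlap for 3 genes at rest (Ido1, Il4i1, Kmo) and for 3 after LPS (Ido1, Kmo, Haao), where 3.44% and 4.53% of all genes were lower without overlap.

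LPS raised 3 of the 8 genes in WT BMDMs (Ido1, Ido2, Il4i1) and lowered Qprt, where 13.2% of all genes were called higher and 11.8% lower. In AhR-KO BMDMs it raised the same 3 and lowered Haao, where 15.1% were called higher and 15.7% lower. The unstimulated and stimulated libraries did not overlap for Ido1 and Il4i1 in WT and for Il4i1 and Haao in AhR-KO BMDMs, as was so for 22.4% and 28.5% of all genes. The medians of the 8 genes were 0.32 and 0.91, beside 0.0305 and -0.0315 over all genes. The genes raised by LPS were thus those that act on tryptophan itself, while the tested genes from Afmid onwards fell or did not pass the test. The interaction was called for Haao alone among the 8, and for 4.3% of all genes. Within each of the 3 runs of library numbers Ido1, Il4i1, Kmo and Haao were lower in AhR-KO than in WT libraries on average, in both states. The difference lay between -6.65 and -4.79 at rest and between -6.24 and -6.13 after LPS for Kmo on the scale of log2(CPM + 0.5).

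**Figure D2:**
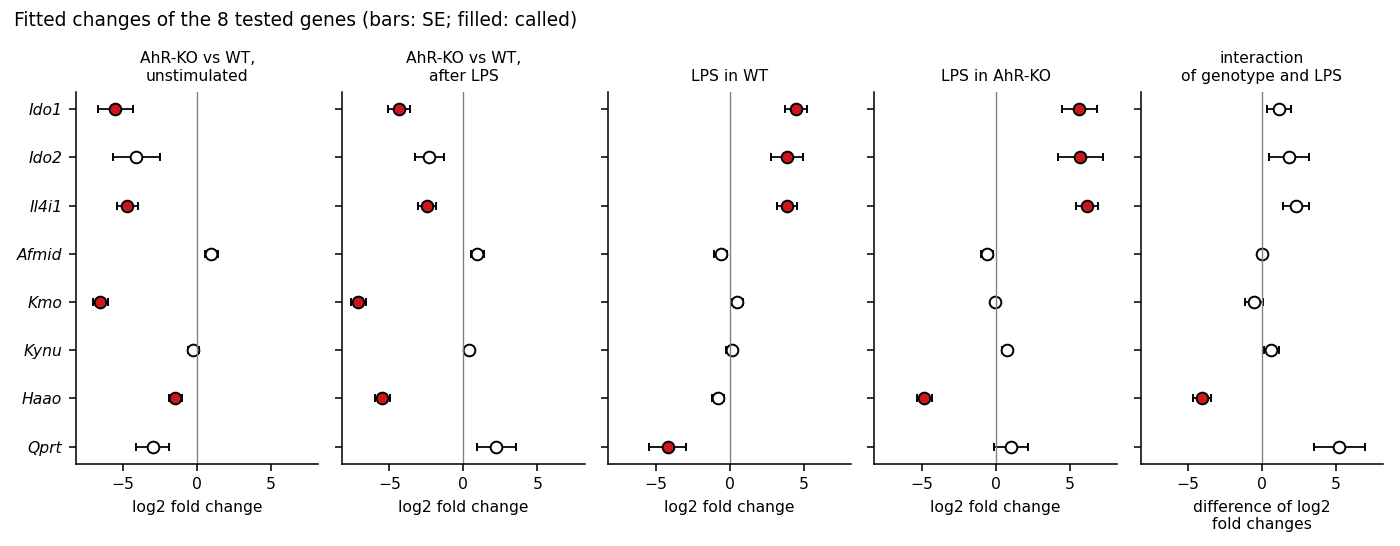
Fitted log2 fold changes of the 8 tested genes (x axis) in the order of the pathway, with Il4i1 placed after Ido2, 1 panel per comparison, with bars for the SE where the change is at least 0.1 and filled points for called genes. Kmo lies at -6.56 and -7.09 in the genotype panels and near 0 in both LPS panels, Ido1, Ido2 and Il4i1 lie to the right in both LPS panels, and Haao is the filled point of the interaction at -4.03.

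To compare the steps with one another, levels were divided by the length of the merged exons. In unstimulated WT BMDMs Kynu (13.8 ± 3.78 CPM per kb) and Kmo (12.5 ± 5.61 CPM per kb) led and did not differ beyond their spread, as did not Haao (4.82 ± 1.44) and Il4i1 (3.98 ± 1.62) after them. Afmid, Qprt, Ido1 and Ido2 followed, each with a mean under 0.16 CPM per kb. In unstimulated AhR-KO BMDMs Kynu (11.6 ± 4.28 CPM per kb) was followed by Haao (1.74 ± 0.598) and Afmid (0.306 ± 0.137), with Il4i1 (0.145 ± 0.163) and Kmo (0.130 ± 0.0563) next.

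After LPS Il4i1 led the WT order at 58.8 ± 23.5 CPM per kb, before Kmo (17.7 ± 7.82) and Kynu (15.2 ± 9.25), whose ranges overlapped, and Haao (2.79 ± 1.36). In AhR-KO BMDMs Kynu led at 19.9 ± 8.10 CPM per kb, followed by Il4i1 at 10.7 ± 10.50 with overlapping ranges, and every other gene was below 0.21 CPM per kb of all its exons on average. Over the 55.8% of its exon bases that Gm20708 does not share, the mean of Afmid was 0.285 CPM per kb in WT and 0.549 in AhR-KO BMDMs at rest, and 0.188 and 0.364 after LPS. In that group Kmo (0.129 ± 0.0779), Haao (0.0605 ± 0.0502) and Ido1 (0.0555 ± 0.0651) did not differ beyond their spread.

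**Figure D3:**
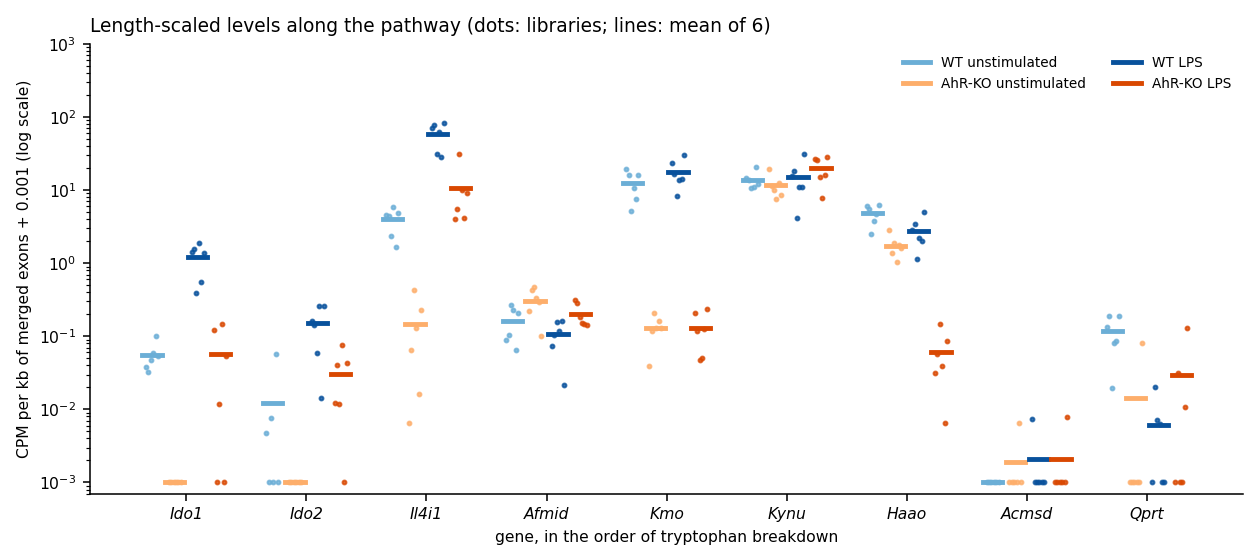
Length-scaled level (CPM per kb of merged exons + 0.001, log scale) of the 9 genes in the order of the pathway, with Il4i1 placed after Ido2, dots for libraries and lines for the mean of 6 in each group. Kynu sits near 10 to 20 in all groups, Kmo lies at 12.5 and 17.7 in WT and near 0.13 in both AhR-KO groups, and Haao falls to 0.0605 in the AhR-KO LPS group.

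Ratios between steps were taken within each library. Per kb, the ratio of Kynu to Kmo ran from 0.744 to 2.75 in unstimulated WT and from 48.1 to 509.2 in unstimulated AhR-KO libraries, and from 0.504 to 1.08 and 119.0 to 330.2 after LPS. The ratio of Kmo to the summed aminotransferases Kyat1 and Kyat3, which compete for kynurenine and make kynurenic acid, had a median of 8.72 in WT and 0.087 in AhR-KO BMDMs at rest and of 16.95 and 0.110 after LPS. Between rest and LPS in WT BMDMs, the median of Kmo went from 13.3 to 15.5 CPM per kb and that of the sum from 1.67 to 0.93. With the more abundant aminotransferase Got2 added to that sum, the medians were 0.897 in WT and 0.00755 in AhR-KO BMDMs at rest and 1.69 and 0.0128 after LPS. Among the enzymes acting on tryptophan, Il4i1 exceeded the sum of Ido1, Ido2 and Tdo2 per kb in the medians of all groups, 4.51 against 0.056 in WT and 0.0964 against 0 in AhR-KO BMDMs at rest, and 66.3 against 1.62 and 7.36 against 0.0667 after LPS. Transcript ratios do not measure enzyme activity.

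Genes around the pathway were read as fixed lists. Of the 4 tryptophan transporters, all tested, Slc7a5, the light chain of the large neutral amino acid transporter, was lower in AhR-KO BMDMs in both states. It stood at 74.2 ± 7.65 CPM in WT and 30.4 ± 6.75 CPM in AhR-KO at rest (log2 fold change -1.29 ± 0.20, edgeR, adjusted p = 0.000143) and at 92.5 ± 30.8 and 14.7 ± 2.94 CPM after LPS (-2.66 ± 0.21, adjusted p = 8.87e-09). Its interaction of -1.37 ± 0.28 (adjusted p = 0.00481) was called too. Its partner Slc3a2 rose with LPS in WT (1.67 ± 0.12, adjusted p = 1.03e-10) and in AhR-KO BMDMs (1.89 ± 0.12, adjusted p = 6.54e-12) and was not called between genotypes. Slc7a8 rose with LPS in AhR-KO BMDMs (2.38 ± 0.79, adjusted p = 0.017) and Slc16a10 was called in no comparison.

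Of 7 genes of other tryptophan fates 4 were tested. Tph1, the hydroxylase of serotonin synthesis outside the brain, had 63 counts in WT and none in AhR-KO BMDMs at rest (adjusted p = 0.000769), and 198 and 77 counts after LPS (adjusted p = 0.271). Its interaction was 4.91 ± 1.20 (edgeR, adjusted p = 0.0242), a value that depends on the prior count. Maoa, an oxidase of serotonin, fell with LPS in WT (-2.43 ± 0.35, adjusted p = 4.78e-06) and AhR-KO BMDMs (-2.74 ± 0.35, adjusted p = 6.95e-07), and Maob and Wars were called in no comparison. Tph2, Ddc and Tdo2 were not tested.

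In the kynurenic acid branch and the ACMSD outlet 3 of 5 genes were tested, and none was called in the genotype or LPS comparisons. Short of the minimum change, Kyat1 fell with LPS in WT (-0.86 ± 0.27, edgeR, adjusted p = 0.0149) and AhR-KO BMDMs (-0.90 ± 0.27, adjusted p = 0.00902). Kyat3 fell with LPS in WT BMDMs (-0.99 ± 0.17, adjusted p = 5.79e-05) and stayed at -0.07 in AhR-KO BMDMs (adjusted p = 0.793). Kyat3 had an interaction of 0.92 ± 0.24 (edgeR, adjusted p = 0.0271). It stood at 6.97 ± 1.58 CPM in WT and 6.31 ± 1.21 CPM in AhR-KO at rest and at 3.51 ± 0.340 and 6.03 ± 0.873 CPM after LPS, where the difference of 0.78 ± 0.17 (adjusted p = 0.00261) was below the minimum change. Aadat had no count in the 18 libraries outside the AhR-KO LPS group and 5 counts in that group.

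Of 7 genes of NAD synthesis after quinolinate and of salvage 6 were tested, and none was called between genotypes. Nampt, the rate-limiting enzyme of NAD salvage, stood at 584.7 ± 168.1 CPM in WT and 675.7 ± 155.0 CPM in AhR-KO BMDMs at rest and at 753.1 ± 196.5 and 1299 ± 317.3 CPM after LPS. The latter difference, 0.79 ± 0.21 on the log2 scale (edgeR, adjusted p = 0.0109), did not reach the minimum change. Naprt rose with LPS in WT BMDMs (1.52 ± 0.33, adjusted p = 0.000797), the one call of the list.

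Of 8 genes of AhR itself and its known partners and targets 6 were tested. At rest Ahr, Ahrr and Cyp1b1 were lower in AhR-KO BMDMs, and after LPS Ahrr and Cyp1b1 were lower and Ahr was higher. The target Tiparp went up after LPS (0.96 ± 0.17, edgeR, adjusted p = 0.000433) and Nqo1 went down (-0.75 ± 0.24, adjusted p = 0.0401), both short of the minimum change. The interaction was called for Ahr (3.29 ± 0.50, adjusted p = 0.000375) and Tiparp (1.48 ± 0.25, adjusted p = 0.000783). Arnt and Nqo1 were called in no comparison.

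Genes known to respond to interferon-gamma, the inducer of IDO1, gave a mixed picture beside the low Ido1 of AhR-KO BMDMs. Of 10 genes 9 were tested, and LPS raised 8 of them in WT and 7 in AhR-KO BMDMs, where Ciita fell. After LPS Gbp2 (1.47 ± 0.45, edgeR, adjusted p = 0.0347) and Cxcl9 (2.02 ± 0.59, adjusted p = 0.0255) were higher in AhR-KO BMDMs, whereas Irf8 (-3.79 ± 0.38, adjusted p = 3.06e-07) and Ciita (-2.78 ± 0.91, adjusted p = 0.0463) were lower. Irf1 (-0.13 ± 0.20, adjusted p = 0.847) was not called. Irf8, a transcription factor of the myeloid lineage, rose with LPS from 111 ± 27.1 to 955.5 ± 393.6 CPM in WT, and stood at 63.2 ± 6.52 and 69.2 ± 56.3 CPM in AhR-KO BMDMs. Cxcl10 and Socs1 were lower in AhR-KO BMDMs at rest. Ifng itself had 0 to 9 counts per group.

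For each gene with a mean of at least 1 CPM, the 3 genes with the most similar profile were sought among 12714 tested genes, by the root mean square difference of centred log2(CPM + 0.5) over 24 libraries. Ahrr was nearest to Kmo (0.54), followed by Jaml (0.77) and Ifitm1 (0.84). Scin (0.77), Cd83 (0.86) and Sema7a (0.89) were nearest to Il4i1, and Cd83 is a surface protein of mature dendritic cells. Gpr183 (0.60), Cd24a (0.70) and S100a4 (0.73) were nearest to Haao, and Gm12096 (0.41), Vrk2 (0.42) and Emp3 (0.42) to Kynu. All these profiles share the libraries, their depth and the 4 group means.

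The labelled cell type was checked with marker lists, and markers of other cells moved with the genotype. All 11 macrophage markers were present in every group, with sums from 6378 to 12730 CPM, and in AhR-KO BMDMs Siglecf was higher at rest (1.57 ± 0.33, edgeR, adjusted p = 0.00282) and Fcgr1 (1.24 ± 0.28, adjusted p = 0.00308) and Car4 (adjusted p = 9.15e-05) after LPS. Of 12 markers of dendritic or Langerhans cells 11 were tested, and in AhR-KO BMDMs at rest 6 were lower (Flt3, Cd207, Epcam, Ccr7, Fscn1 and Cd209a) and 3 higher (Clec9a, Batf3 and Ccl17). After LPS 6 were lower and none higher. Their sum ran from 414.6 to 1165 CPM in WT and 2024 to 5575 CPM in AhR-KO BMDMs at rest, and from 3932 to 9951 (median 8962) and 4154 to 10860 CPM (median 4800) after LPS. Most of the sum at rest was the chemokine Ccl17, and without it, a choice made after seeing the data, the direction at rest turned: the other 11 markers summed to 136.2 to 414.2 CPM in WT and 37.7 to 124.6 CPM in AhR-KO BMDMs. After LPS the median sum was lower in AhR-KO BMDMs with and without Ccl17, and without it the sums were 2121 to 7904 CPM (median 6286) in WT and 561.8 to 5935 CPM (median 1172) in AhR-KO BMDMs. Cd207, the defining marker of Langerhans cells, was 35.4 ± 12.8 CPM in WT and 0.038 ± 0.054 CPM in AhR-KO BMDMs at rest. After LPS it was 2.93 ± 3.94 CPM in WT and at 0 in all AhR-KO libraries, and Cd209a was at 0 in all WT LPS libraries.

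Of 9 neutrophil markers 8 were tested, and 7 were lower in AhR-KO BMDMs at rest and 5 after LPS. Their sum ran from 1677 to 12710 CPM in WT and from 255.9 to 804.7 CPM in AhR-KO BMDMs at rest, and from 725.5 to 8432 and 140.8 to 1019 CPM after LPS, and none of the markers was at 0 in any group. Of 6 mast cell or basophil markers 3 and 4 were lower in the respective states, with sums from 4.88 to 18.1 against 1.98 to 4.08 CPM at rest and from 14.6 to 41.1 against 4.51 to 12.5 CPM after LPS, and none was at 0 in any group. Markers of T or NK cells summed to at most 1.88 CPM and those of B cells to at most 0.347 CPM in any library. None of the 5 B cell markers passed the filter. Of the 6 T or NK cell markers 1, Klrb1c, was tested and was higher in AhR-KO BMDMs after LPS, and 5 were at 0 in the AhR-KO LPS group. The part of other cell types in the pathway results was not tested.

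The neutrophil sum was highest in the unstimulated WT libraries 25 and 33 (4995 and 12710 CPM) and the WT LPS libraries 29 and 37 (3608 and 8432 CPM). Without these 4 libraries, a choice made after seeing the data, 4 genes were called lower in AhR-KO BMDMs at rest and 5 after LPS, Ido2 (-2.75, edgeR, adjusted p = 0.0242) being the fifth, where 3.76% and 6.03% of all tested genes were called lower.

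The AhR-KO library 31, which reached the WT range of Il4i1 after LPS, had 5935 CPM of dendritic or Langerhans cell markers other than Ccl17, of which the chemokine Ccl22 alone made 4863 CPM. Without both chemokines the sum of the other 10 markers was 1072 CPM in library 31, still the highest of its group, whose median was 266.8 CPM, and Ccl22 itself was not called between genotypes after LPS (-1.04, edgeR, adjusted p = 0.252). It also had the highest Irf8 (183.0 CPM) and Haao (0.688 CPM) and the lowest Kmo (0.216 CPM) of its group. Without it the genotype difference of Il4i1 after LPS was -3.17 (edgeR, adjusted p = 0.00134) in place of -2.46. The summed level of the 11 markers without Ccl17 was, like Il4i1, lower in AhR-KO than in WT BMDMs at rest, and its part in the Il4i1 difference was not tested.

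**Figure D4:**
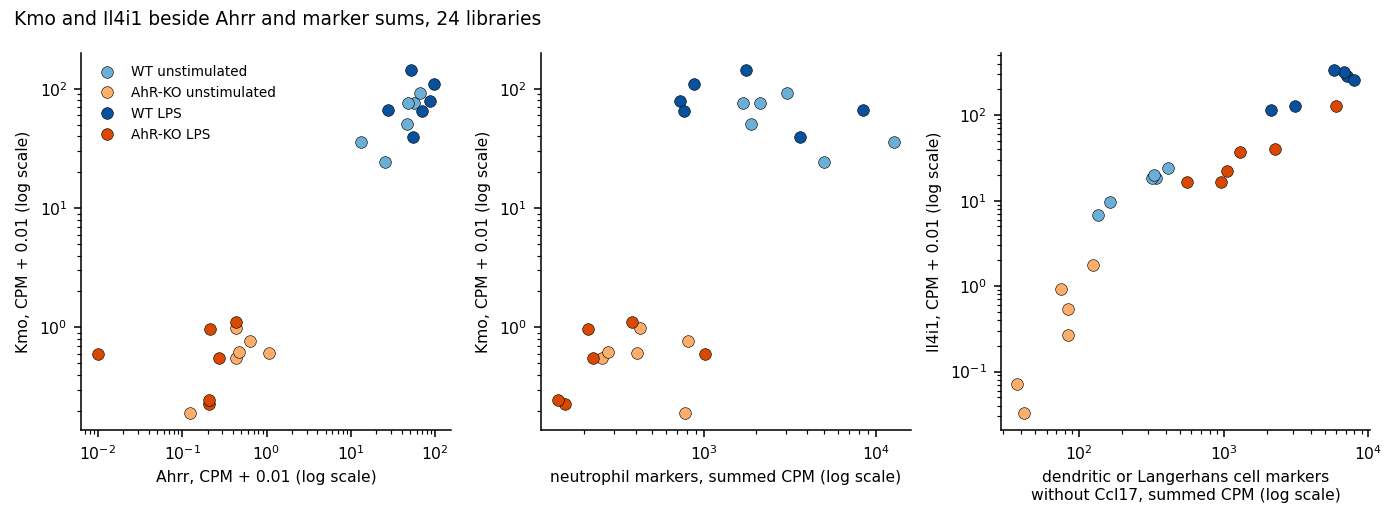
Levels in the 24 libraries, all on log axes: Kmo against Ahrr (left), Kmo against the sum of 9 neutrophil markers (middle) and Il4i1 against the sum of 11 dendritic or Langerhans cell markers without Ccl17 (right), with colours for the 4 groups. Kmo and Ahrr are both high in 12 WT and low in 12 AhR-KO libraries, and the AhR-KO LPS library with the highest Il4i1, 128.6 CPM, also has the highest marker sum of its group, 5935 CPM, of which Ccl22 makes 4863 CPM.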

How the data were processed

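RNA of 24 libraries in 4 groups of 6 was analysed. The authors aligned read pairs to mm10 with GSNAP and assigned fragments to Ensembl 98 genes with featureCounts 2.0.1, reverse-stranded, with a minimum mapping quality of 1. The deposited values are these raw counts per gene. The 92 spike-in rows, with 1 count in all, were left out. GENCODE M21 named 55240 of 55421 genes and gave positions in GRCm38.

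Counts entered 1 model with a coefficient per group in edgeR 4.0.16 (R 4.3.3) with TMM factors (0.704 to 1.30), filterByExpr (16593 genes) and the robust quasi-likelihood F-test. The steps were also run on simulated counts, drawn as independent libraries with the fitted spread. Such counts cannot show effects of pairing or of cell composition. The biological coefficient of variation was 49.1%. For a gene without counts in a group, 3 counts over the group served as floor, which covers counting error only. The authors used DESeq2, and DESeq2 1.42.0 and limma 3.58.1 (voom) served as alternatives, beside other scaling, filters, covariates and subsets of libraries. Other steps used Python 3.11.15, numpy 2.4.6, pandas 2.3.3 and matplotlib 3.10.9.

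The genes, 6 lists around the pathway and 6 marker lists were chosen with earlier results of these data known. Named were all 9 genes, list members that were called or changed most, and the 3 nearest profiles. Promoters are from RefSeq.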

Additional observations from a re-analysis of the deposited data

Results flagged for a closer look

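In groups of 6, a library was marked when its gap to the nearest other library exceeded, as a share of the range, Dixon's limit for 6 values at 95%, which chance passes in about 1 of 20 groups. It was passed in 7 of 33 groups of the 9 genes, all with few counts. Ido2 was 0.204 CPM in the unstimulated WT library 33 and at most 0.0244 CPM in the others. Qprt was 0.212 CPM in the unstimulated AhR-KO library 36, with 0 in the others, 0.0515 CPM in the WT LPS library 22 and 0.344 CPM in the AhR-KO LPS library 40. Acmsd had 1 count in each of 3 libraries, 0.0156 CPM in the AhR-KO library 35, 0.0181 CPM in the WT LPS library 21 and 0.0191 CPM in the AhR-KO LPS library 40.

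The response of Haao to LPS differed between the genotypes by the test of the interaction, with a difference of log2 fold changes of -4.03 (edgeR, adjusted p = 0.000362), and every library left out in turn kept it between -4.51 and -3.78. Its cause was not tested.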

How the results depend on the processing

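Of 1365 values of the 8 tested genes under alternatives, 1310 kept direction and side of the threshold, 11 newly passed it, 9 no longer did and 35 changed sign, all 35 at values that were not called. With a mean of at least 1 CPM the number of genes called was 1 for LPS in WT and 2 for LPS in AhR-KO BMDMs, since low genes were not tested, and 2 for the latter with only the 12 libraries compared. The genotype difference of Ido1 at rest was tested in neither setting. The interaction was called for 2 of the genes with limma-voom (Qprt beside Haao) and with the gene length slope (Il4i1 beside Haao), and for 1 to 2 with a library left out. Over all genes it was called for 1125 by DESeq2, 1201 with the run as a factor and 2879 with the length slope, against 713.

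Sign changes: Kynu, LPS in WT, was -0.20 with total library size, -0.0719 with limma-voom, -0.24 without both libraries under 10 Y-linked counts and -0.19 to 0.33 with a library left out, below 0 without library 38. Kmo, LPS in AhR-KO, was 0.0159 with DESeq2 size factors, 0.0224 with DESeq2, and -0.28 to 0.158 with a library left out. Qprt, LPS in AhR-KO, was -0.72 to 5.20 with a library left out, the upper end depending on the prior count. The interaction of Afmid was 0.027 with DESeq2 size factors, 0.0278 with DESeq2, 0.112 with limma-voom, 0.0335 with the run, 0.0491 with the length slope, 0.381 without the 4 libraries rich in neutrophil markers, and -0.22 to 0.160 with a library left out. That of Ido1 was -1.46 with limma-voom. That of Ido2 was -1.05 with limma-voom, -1.33 without the same 4 libraries and -0.0259 to 2.11 with a library left out.

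Haao at rest was not called without both libraries under 10 Y-linked counts (-1.38, adjusted p = 0.0636, edgeR), and Haao for LPS in WT was called with total library size (-1.14, adjusted p = 0.0278). Qprt at rest was called with limma-voom (-4.17, adjusted p = 0.0031) and with the run as a factor (-3.65, adjusted p = 0.0317), and Ido2 after LPS with limma-voom (-2.34, adjusted p = 0.0422). The cause was not tested. No paired analysis was run, because the library numbers are all different, the groups share none and no label gives pairs. What pairing would change in the LPS and interaction tests was not tested. Libraries that stood apart in neutrophil markers (25 and 29, 33 and 37) or Y-linked counts (34 and 38) came in an unstimulated and an LPS library of WT, which no label ties together, so the LPS tests took all libraries as independent. Depth limits Ido2, Qprt and Acmsd, whose groups hold 0 to 183 counts.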
